A study of Mus musculus with 12 samples.

Results

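Gene expression in the gastrocnemius, a mixed-fibre calf muscle, was compared between old knock-out and old wild-type mice on 3 arrays per genotype, chosen by the age and genotype in the sample descriptions. These 6 arrays are among 12 in the series, and the other 6 carry young muscle of both genotypes. All mice had the mixed background C57Bl/6N/6J/129. The knock-out is labelled muscle-specific for PGC-1alpha, with a myogenin-cre, old means 24 month and young means 10 week. The myogenin promoter is active in differentiating muscle cells, so macrophages, fat cells, vessels and nerve in the same tissue block would keep the gene. Not given in the labels are which exons were deleted, whether wild-type mice carried floxed alleles or the cre, the sex, or whether each array came from its own animal. Where arrays share an animal the p-values measure only technical spread. The series title names glucose intolerance and systemic inflammation in ageing muscle as the study's subject.

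PGC-1alpha, encoded by Ppargc1a, is a transcriptional coactivator. It has no DNA-binding domain of its own and is brought to genes by factors such as the oestrogen-related receptors, the nuclear respiratory factors and the PPAR receptors. In skeletal muscle it is induced by exercise and is known for raising mitochondrial content, oxidative enzymes, vessel growth factors and features of slow fibres. Its targets include genes for enzymes that burn pyruvate and acetyl groups, for the respiratory chain and for secreted muscle factors.

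Values are log2 signals, so a difference of 1 is a 2-fold change. Differences are knock-out minus wild-type in old muscle, and ± is the standard error from limma with 3 arrays per group. A gene is said to rise or fall where its adjusted p lay under 0.05 over the 18194 genes tested, each read on 1 probe set. Where the lower group mean lay under 6.22, the median of all values, the fold is given as "at least". The number of arrays limits the precision.

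The 3 old wild-type arrays resembled each other closely (Pearson r from 0.9945 to 0.9949 over genes), while the old knock-out arrays ranged from 0.9885 to 0.9941, with knock-out 1 the most distant. The defining muscle genes Acta1 and Ckm were among the brightest on every old array, between 15.82 and 15.96, near the top of the scale where differences are compressed. All 15 skeletal muscle markers lay above the median signal, at a mean level per array of 15.37 to 15.38 in wild-type and 15.32 to 15.36 in knock-out muscle. Adipocyte markers (16 genes) had mean levels of 8.68 to 9.08 in wild-type and 8.599 to 10.1 in knock-out muscle. Macrophage markers (30 genes, 4 under the median signal) had 6.95 to 7.75 and 7.75 to 8.09, and fibroblast markers (13 genes) 9.85 to 10.3 and 9.11 to 10.5. Of the lymphocyte and neutrophil markers 11 of 17 and 8 of 9 lay under the median signal in both genotypes. In a tissue block, fewer cells of a type and less RNA per cell cannot be told apart. Results that these levels touch are given below with them.

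The targeted gene did not check the labels. On the probe set with the largest difference, Ppargc1a read 10.70, 10.27 and 10.08 in wild-type against 10.89, 10.62 and 11.01 in knock-out arrays. The groups overlapped, and the difference was 0.49 ± 0.22 (adjusted p = 0.265). The other 4 probe sets differed by 0.29 to 0.44. None was lower in the arrays labelled knock-out, and none passed. A probe set outside the deleted exons says nothing about the deletion, and each group keeps the name its label gives it.

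In old knock-out muscle 241 of 18194 genes passed, 1.32% of those tested. Of these, 155 fell (0.852%) and 86 rose (0.473%), and all 241 had knock-out arrays that did not overlap the wild-type arrays, as had 23.8% of all genes (knock-out arrays all lower in 13.2%, all higher in 10.6%). Rises made up 35.7% of calls, a share that became 48.5% (115 of 237) after median centring of the arrays. With repeated quantile normalization it was 28.5% (80 of 281). A fall or rise of at least 2-fold was seen in 15 and 14 genes. An unadjusted p under 0.05 was seen in 3505 genes (19.3%). These shares over all genes are the background for every list count below.

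These counts depended on single arrays. Leaving out old knock-out 1, 2 or 3 gave 151, 95 or 644 genes, leaving out old wild-type 1, 2 or 3 gave 109, 39 or 28, and leaving out young knock-out 2 or 3 or young wild-type 3, which only serve the variance, gave 136, 160 or 121. With the 6 old arrays alone in the fit 0 genes passed limma (smallest adjusted p = 0.0515), while 2891 had an unadjusted p under 0.05. No called gene changed direction in any of these fits, but that was fixed in advance. Leaving out an old array cannot reverse a gene whose arrays are apart, and the old difference does not use the young arrays. A core of 20 genes passed in all of the 19 settings fitted to 4 groups in which they were tested, 17 lower and 3 higher: Alas1, Car2, Ckmt2, Clybl, Cox7a1, Dlat, Fndc5, Fuom, Glrx, Got2, Iqsec2, Kcng4, Phyh, Pyurf, S100a1, Slc25a12 and Sod2 below, and Casr, Gpx7 and D630024D03Rik above wild-type.

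**Figure D1:**
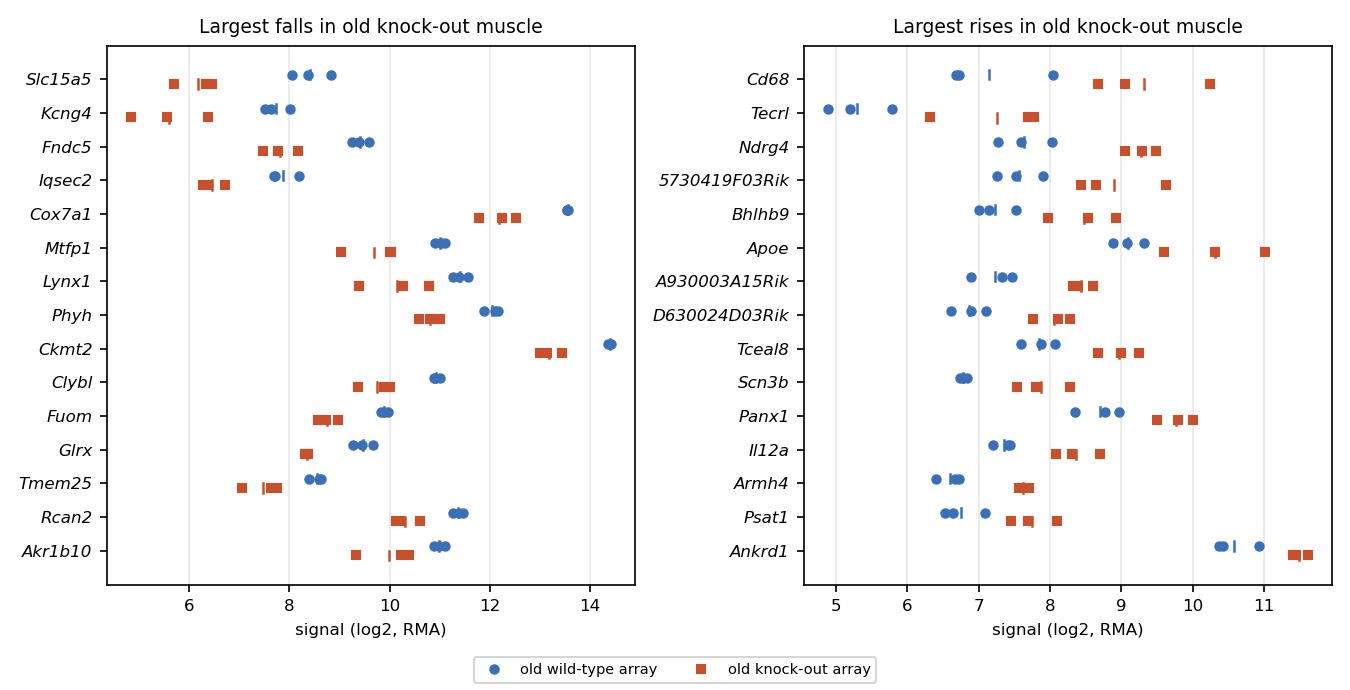
Log2 signal of the 15 largest falls and 15 largest rises on each old array (circles, wild-type; squares, knock-out; vertical ticks, means of 3). In no gene shown do the genotypes overlap; Cox7a1 and Ckmt2 are tight in wild-type muscle, and Cd68 has 1 wild-type array, at 8.04, far above the other wild-type arrays.

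The clearest changes by p-value were in metabolic enzymes. Ckmt2, the mitochondrial creatine kinase of striated muscle, read 14.42, 14.37 and 14.40 in wild-type and 12.997, 13.14 and 13.44 in knock-out arrays. Glrx, a glutaredoxin that removes glutathione from proteins, read 9.67, 9.45 and 9.26 against 8.38, 8.31 and 8.36. Phyh, the peroxisomal enzyme that starts breakdown of the branched fatty acid phytanic acid, read 11.89, 12.16 and 12.11 against 10.59, 10.81 and 11.00. In all these genes the knock-out arrays were low by more than the spread of either group, at -1.20 ± 0.11, -1.11 ± 0.10 and -1.25 ± 0.12, each with adjusted p = 0.000865. Their adjusted p stayed at or under 0.00982 when any 1 array was left out.

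Fndc5, whose protein is cleaved to the circulating peptide irisin, read 9.39, 9.26 and 9.59 in wild-type and 7.46, 7.78 and 8.17 in knock-out muscle, a 3.06-fold fall. Clybl, an enzyme of the mitochondrial matrix that clears citramalyl-CoA, read 10.91, 11.01 and 10.89 against 9.37, 9.89 and 10.01. Fuom, which interconverts the forms of fucose, read 9.82, 9.96 and 9.90 against 8.57, 8.73 and 8.97. These genes too fell in every knock-out array. The largest falls by size were in the transporter gene Slc15a5 (at least 4.77-fold) and the potassium channel subunit gene Kcng4 (at least 4.40-fold), both dim in knock-out muscle. Iqsec2, an exchange factor for ARF proteins, fell by 1.41 on its brightest probe set, but its other 2 probe sets gave -0.03 and -0.24. Smaller falls of this size class were in Tmem25 (-1.06 ± 0.16), a membrane protein gene, and Akr1b10 (-1.01 ± 0.20), an aldo-keto reductase, which was called in 3 of 12 fits that left out an array (adjusted p up to 0.132).

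Among factors that work with PGC-1alpha, 3 of 36 measured genes fell, 0 rose and the median difference was -0.07, beside -0.02 over all genes. Esrra, the oestrogen-related receptor that carries PGC-1alpha to many energy genes and is itself such a target, read 10.68, 10.75 and 10.74 in wild-type and 9.54, 9.84 and 10.08 in knock-out arrays (-0.91 ± 0.14, adjusted p = 0.0124). Perm1, a muscle regulator induced by PGC-1 and ERR, read 11.73, 11.79 and 11.66 against 10.48, 10.71 and 11.19 (-0.93 ± 0.19, adjusted p = 0.0412); its other probe set was dim and gave 0.13. Sirt3, the mitochondrial deacetylase, read 9.71, 9.72 and 9.63 against 8.23, 8.999 and 9.08 (-0.91 ± 0.18, adjusted p = 0.0358). All 3 thus lay lower in every knock-out array. Leaving out 1 array gave 0 to 3 falls in this list, with 0 without wild-type 2 or wild-type 3.

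None of the other regulators passed. Esrrg, a related receptor, was at -0.03, Ppara at -0.42 and Nrf1, a nuclear respiratory factor, at 0.31, with young differences of 0.38, -0.48 and 0.14. The 8 nuclear factors of mitochondrial transcription, a subgroup chosen after the values were seen, lay between -0.18 and 0.31, with 0 called by limma (0 unadjusted); Tfam, which packages mitochondrial DNA, was at -0.05 ± 0.10. Ppargc1b, the sister coactivator, was at -0.21 and turned to 0.10 without knock-out 1. Pparg, the fat cell regulator, read 8.64, 7.95 and 6.33 in the knock-out arrays and 6.49 to 6.70 in wild-type. Its high arrays are those high in adipocyte markers, but Pparg is itself 1 of those 16 markers. Of 42 genes for mitochondrial DNA upkeep and translation, 1 fell, the elongation factor gene Tufm (-0.50 ± 0.08), with a median of -0.05 and 0 to 3 falls on leaving out 1 array (0 without knock-out 2, wild-type 2 or wild-type 3).

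The tricarboxylic acid cycle, where acetyl groups are oxidised to carbon dioxide, and the pyruvate dehydrogenase step that feeds it showed the most falls of the lists described. Of 30 measured genes 18 fell (60%), 0 rose and 12 did not pass, with a median of -0.46. Dlat, the acetyl-transferring core of pyruvate dehydrogenase, read 11.62, 11.78 and 11.68 in wild-type and 10.52, 10.65 and 10.95 in knock-out muscle (-0.98 ± 0.11, adjusted p = 0.00220). Cs, the entry enzyme citrate synthase, read 14.34, 14.24 and 14.39 against 13.71, 13.81 and 13.94 (-0.50 ± 0.08). Both sets of arrays stood apart, as they did in 21 of the 30 genes, all lower in knock-out muscle, beside 13.2% of all genes.

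Inside this pathway whole enzymes moved. All 5 parts of pyruvate dehydrogenase fell (-0.98 to -0.38), and so did all 3 of 2-oxoglutarate dehydrogenase (-0.55 to -0.48), which shares the subunit Dld. For succinate dehydrogenase, which is also complex II of the respiratory chain, 3 of 4 subunit genes fell, among them Sdha (-0.56). Sdhd (-0.53) did not pass. All 4 had knock-out arrays below all wild-type arrays, with differences of -0.56 to -0.51. The isocitrate dehydrogenase subunits Idh3a (-0.46) and Idh3g (-0.45) fell, and Idh3b (-0.15) did not pass. These subgroups were chosen after the values were seen. Regulators of pyruvate dehydrogenase split: the inhibiting kinase Pdk2 fell (10.65, 10.92 and 10.75 against 10.07, 10.20 and 10.13), while Pdk4, the kinase induced by fasting, was at 0.00 ± 0.26. The fits that left out 1 array gave 1 to 19 falls in the list, with 1 without wild-type 2 or wild-type 3, 7 without knock-out 2, and 10 without knock-out 1 or wild-type 1; the median stayed between -0.50 and -0.39.

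**Figure D2:**
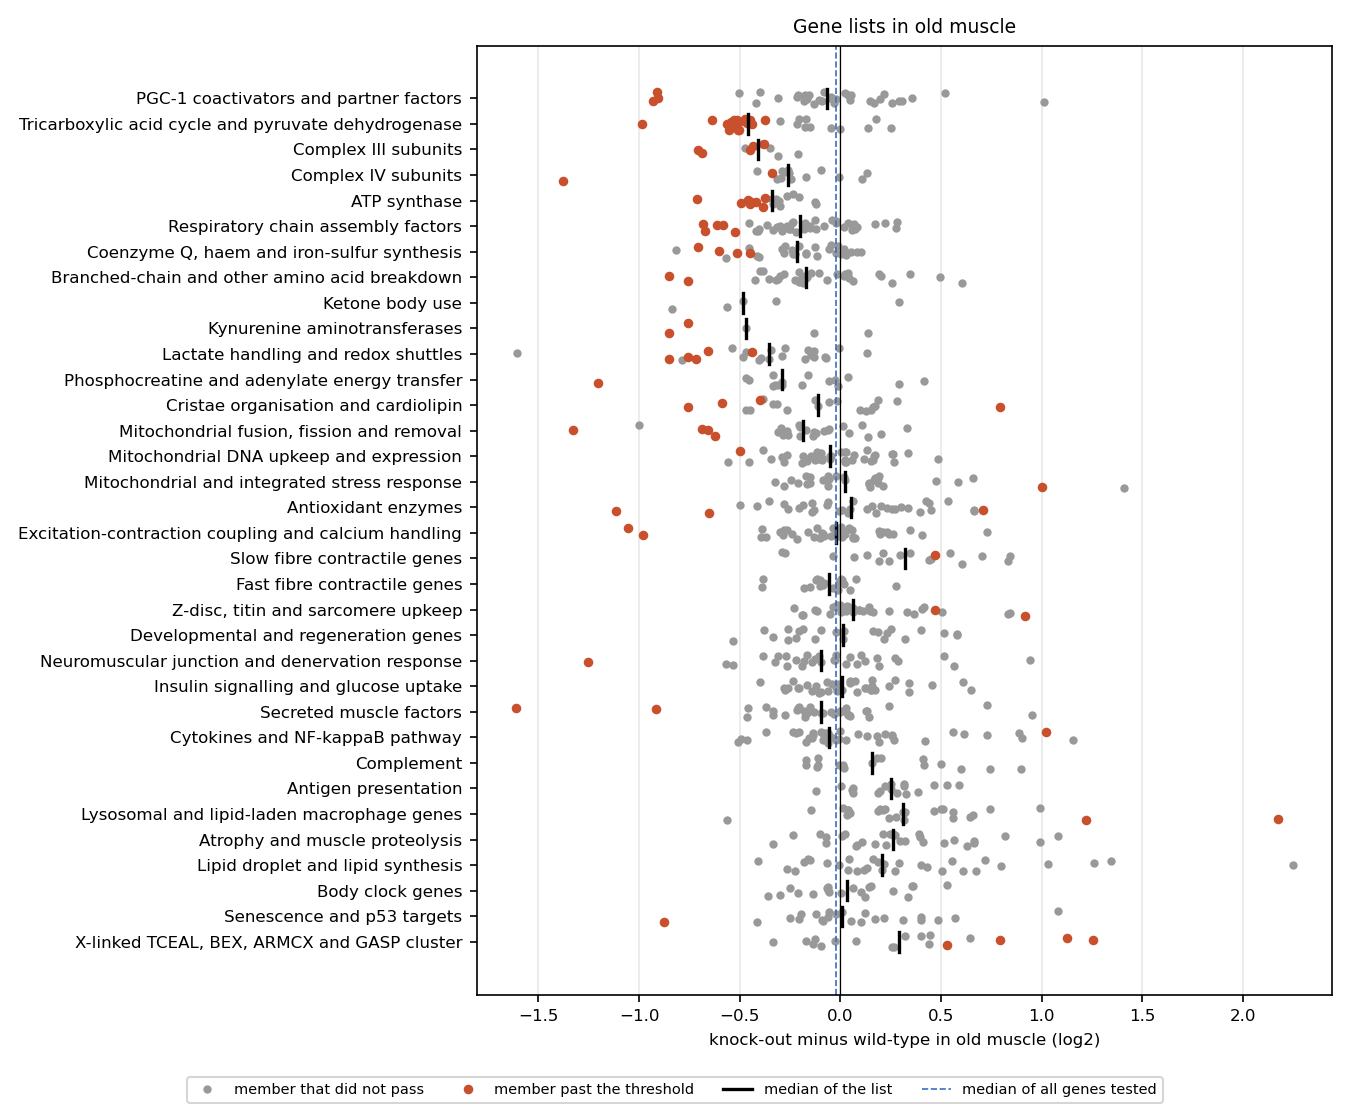
Knock-out minus wild-type in old muscle (log2) for every measured member of each gene list; red points passed limma, black bars are list medians and the dashed line is the median of all genes, -0.02. Tricarboxylic acid cycle, complex III and ATP synthase genes lie almost wholly left of 0, while insulin signalling and fast fibre genes are centred near 0.

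In complex III of the respiratory chain, which passes electrons to cytochrome c, 5 of 10 genes fell (median -0.41). In all 10 the knock-out arrays lay below the wild-type arrays, beside 13.2% of all genes. Uqcrc1, a core subunit, read 14.14, 14.23 and 14.16 against 13.12, 13.51 and 13.78. Cyc1, which holds the haem that hands on electrons, read 13.86, 14.03 and 13.93 against 12.87, 13.27 and 13.62. Knock-out 1 was the lowest array in both. Fits without 1 array gave 0 to 8 falls, with 0 without knock-out 2, wild-type 2 or wild-type 3.

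Of 16 genes for complex IV, cytochrome c oxidase, 2 fell, with a median of -0.26. Most of the others also had all knock-out arrays below wild-type without passing, beside 13.2% of all genes. Cox7a2l (0.11) and Cox6a1 (0.13) lay above wild-type on average. Cox7a1, the form of subunit 7a used in heart and muscle, read 13.55, 13.57 and 13.55 in wild-type and 11.78, 12.24 and 12.53 in knock-out arrays, a fall of 2.599-fold. Cox4i1, the common form of subunit 4, fell by less (-0.34 ± 0.07) and was called in 1 of 12 fits that left out an array (adjusted p up to 0.145). The list had 4 falls without knock-out 3 and 1 without any other single array.

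Of 18 genes for ATP synthase, which makes ATP from the proton gradient, 8 fell, with a median of -0.34. Atp5g1, which encodes the rotating ring subunit c, read 14.30, 14.33 and 14.34 against 13.39, 13.63 and 13.81. Atp5a1 (-0.44), Atp5b (-0.38), Atp5d (-0.42) and Atp5o (-0.45) of the catalytic part and stalk fell as well, and 16 of the 18 had arrays apart and lower, beside 13.2% of all genes. Leaving out 1 array gave 0 to 11 falls, with 11 without knock-out 3, 0 without wild-type 3 and at most 4 otherwise. In complex I, the entry point for NADH, the subunit gene Ndufa8 read 13.18, 13.29 and 13.22 against 12.19, 12.51 and 12.74 (-0.75 ± 0.12).

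Where a protein has several forms, the forms often differed in size of change. Cox7a1 was at -1.38 ± 0.14, the general form Cox7a2 at -0.42 ± 0.09 (adjusted p = 0.0573) and Cox7a2l, which links complexes, at 0.11. Of the genes for ring subunit c, which encode the same mature protein, Atp5g1 was at -0.71, Atp5g3 at -0.38 and Atp5g2 at -0.13. Ckmt2 was at -1.20 and Ckmt1, the widespread form, at -0.33, on a signal under the median of all values. Sod2, the superoxide dismutase of mitochondria, fell (13.12, 13.05 and 12.98 against 12.23, 12.46 and 12.51), and Sod1, mainly of the cytosol, was at 0.16. In the list of 35 such forms 11 fell and 0 rose, with a median of -0.26; leaving out 1 array gave 4 to 12, lowest without wild-type 3. No test compared forms with each other, since probe sets differ in response.

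**Figure D3:**
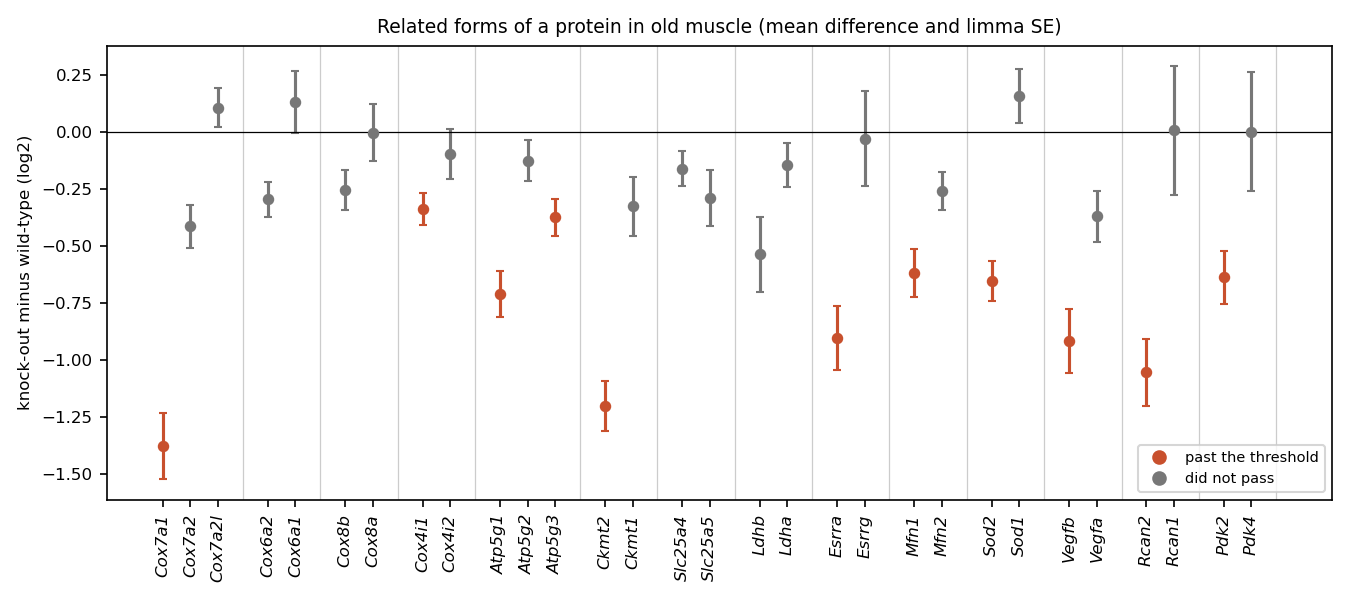
Knock-out minus wild-type in old muscle (log2 mean difference, bars are limma standard errors, 3 arrays per genotype) for related forms of a protein; red passed limma. Cox7a1, Ckmt2, Rcan2, Vegfb and Esrra lie near or under -0.9, and Cox7a2l, Sod1 and Pdk4 lie at or above 0.

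Genes that build the chain also fell in part. Of 42 assembly factors 5 fell, beside 0.852% of all genes, 0 rose and the median was -0.20. Cox10 and Cox15, which make the haem a of complex IV, were at -0.68 ± 0.10 and -0.58 ± 0.11, Uqcc1 (complex III) at -0.67 ± 0.14, Ndufaf6 (complex I) at -0.61 ± 0.12 and Atpaf1 (ATP synthase) at -0.52 ± 0.09. In the synthesis of coenzyme Q, haem and iron-sulfur clusters 4 of 30 fell, beside 0.852% of all genes, with a median of -0.21. Alas1, the first enzyme of haem synthesis, read 11.53, 11.68 and 11.66 against 10.93, 10.91 and 10.93, nearly the same value in all 3 knock-out arrays. Fdx1, a ferredoxin, fell to 11.22, 11.27 and 11.28 from 11.74, 11.80 and 11.77, and Coq9 and Coq5, of coenzyme Q synthesis, fell by 0.61 and 0.45. Coq7 was at -0.82 without passing, since knock-out 1 read 9.99 and knock-out 2 read 11.57. The fits that left out 1 array gave 0 to 6 falls among assembly factors (0 without wild-type 2 or 3) and 1 to 8 in the synthesis list (1 without wild-type 2 or 3).

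Genes of mitochondrial shape and movement changed one by one. Of 26 genes of fusion, fission and removal 4 fell, beside 0.852% of all genes, and 0 rose (median -0.19). Mtfp1, an inner membrane protein that promotes fission, read 11.10, 11.03 and 10.92 against 9.02, 10.01 and 10.03. Mfn1, which fuses outer membranes, read 12.34, 12.22 and 12.48 against 11.85, 11.55 and 11.78, and its partner Mfn2 was at -0.26 ± 0.08 without passing. Trak1 (-0.66) and Trak2 (-0.69), which tie mitochondria to motor proteins, fell together; a dim second Trak2 probe set gave 0.08. Gdap1 was at -1.0 without passing, with knock-out 1 at 7.71 beside 10.39 and 10.04. Among 21 genes of cristae and cardiolipin, Chchd10 (-0.76), Ptpmt1 (-0.59) and Immt (-0.40), a core part of the cristae junction complex, fell. Chchd6, another part of that complex, rose, from 8.27, 8.03 and 8.25 to 8.96, 9.15 and 8.83; its call was lost without knock-out 1 or 2 or any old wild-type array (adjusted p up to 0.102). Fits without 1 array gave 1 to 4 falls in the first list and 0 to 6 in the second, lowest without wild-type 2 or 3 in both.

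The malate-aspartate shuttle, which carries the electrons of cytosolic NADH into mitochondria, fell at most of its steps. Of its 7 genes, a subgroup chosen after the values were seen, 5 fell, beside 0.852% of all genes. In 6 the knock-out arrays lay below all wild-type arrays, beside 13.2% of all genes. The 7 differences ran from -0.85 to -0.34. Got2, the mitochondrial aspartate aminotransferase, read 13.78, 13.89 and 13.84 against 13.03, 12.87 and 13.05 (-0.85 ± 0.09, adjusted p = 0.00174). Got1, the cytosolic partner, read 13.16, 13.30 and 13.28 against 12.48, 12.37 and 12.63 (-0.76 ± 0.12, adjusted p = 0.0121). The groups stood clear of each other in both. The aspartate carrier Slc25a12 (-0.66), the 2-oxoglutarate carrier Slc25a11 (-0.72) and Mdh2 (-0.44) fell too, while the 3 genes of the glycerol phosphate shuttle, the alternative route, were at -0.41 to -0.07 with 0 called (0 unadjusted). In the list of 25 redox shuttle and lactate genes 5 fell and 0 rose (median -0.35), 2 to 6 on leaving out 1 array, with 2 without wild-type 2 or 3.

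Related uses of the same enzymes were measured in short lists. Got1 and Got2 also convert kynurenine, and are the 2 of 5 kynurenine aminotransferases that fell (median -0.47); Kyat1 was at -0.47 without passing. In the 5 genes of ketone body use 0 passed limma (4 unadjusted), with Bdh1 at -0.84 ± 0.19 (adjusted p = 0.0584) and Oxct1, the limiting enzyme, at -0.56 (adjusted p = 0.0789). In 33 genes of amino acid breakdown Got1 and Got2 were the only calls, and Dhtkd1 at 0.60 and Prodh at 0.50 were the highest without passing; without wild-type 2 or 3 each of these lists had 1 call at most, and without knock-out 3 ketone body use had 2 falls and amino acid breakdown 4 falls and 1 rise. Nmrk2, a kinase of NAD synthesis in muscle, was at -1.60 ± 0.59 and did not pass, with knock-out 1 at 9.65 beside 12.20 and 11.57.

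Promoters of fallen genes were read for letters that PGC-1alpha's partners are known to bind, and those shown are the fallen gene with the full oestrogen-related receptor (ERR) site and the pair with its shorter core and the smallest p. The stretches are RefSeq promoters of build GRCm38.p6, from 250 bases before to 50 after the start, in the gene's direction, with the match in capitals. For Atp5g3 (chr2:73911277-73911576, minus strand) the capitals are the full ERR site TCAAGGTCA read on the other strand, 52 bases before the start. For Gnb5 (chr9:75306038-75306337, plus strand) and Got1 (chr19:43524556-43524855, minus strand) they are the core AAGGTCA, 211 and 245 bases before the start. Gnb5 encodes a G protein beta subunit and read 9.20, 9.16 and 9.27 in wild-type and 7.92, 8.25 and 8.56 in knock-out muscle.
Atp5g3: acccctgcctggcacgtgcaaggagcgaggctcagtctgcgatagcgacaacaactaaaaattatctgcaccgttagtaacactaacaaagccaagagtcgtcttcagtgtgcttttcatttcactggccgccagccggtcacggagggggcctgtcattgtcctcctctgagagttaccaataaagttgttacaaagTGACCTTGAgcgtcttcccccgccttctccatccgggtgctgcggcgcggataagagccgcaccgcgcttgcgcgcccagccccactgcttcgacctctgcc
Gnb5: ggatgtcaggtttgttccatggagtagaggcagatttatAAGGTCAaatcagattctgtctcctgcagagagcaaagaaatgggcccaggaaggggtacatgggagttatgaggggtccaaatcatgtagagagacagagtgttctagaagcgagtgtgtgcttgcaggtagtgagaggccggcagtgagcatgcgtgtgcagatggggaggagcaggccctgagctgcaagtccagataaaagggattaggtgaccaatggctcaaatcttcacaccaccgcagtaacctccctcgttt
Got1: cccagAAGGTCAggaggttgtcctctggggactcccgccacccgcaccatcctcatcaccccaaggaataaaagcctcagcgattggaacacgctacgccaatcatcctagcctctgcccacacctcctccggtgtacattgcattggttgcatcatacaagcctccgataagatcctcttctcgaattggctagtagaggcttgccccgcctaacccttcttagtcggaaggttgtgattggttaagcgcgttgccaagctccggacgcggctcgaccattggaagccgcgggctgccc

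The shares of promoters with such letters were near those of all genes. Of the genes tested 14369 had a promoter in the table, 127 of those that fell and 77 of those that rose; 1 promoter was read per gene, on both strands. AAGGTCA stood in 5.51% of fallen (7 genes), 2.6% of risen and 3.85% of all promoters, and TCAAGGTCA, which holds it, in 0.787%, 0% and 0.355%. GCGCATGCG, for nuclear respiratory factor 1, stood in 3.15%, 1.30% and 2.85%, and CCGGAAG, for GABPA, in 12.6%, 13% and 13.8%. CTANNNNTA, for MEF2, stood in 17.3%, 22.1% and 16.2%. A match is only these letters in this window and no site of binding.

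In energy transfer and calcium handling few genes passed. Ckmt2 was the 1 of 17 phosphocreatine and adenylate genes that passed. The list's median was -0.29, beside -0.02 over all genes, and ran from -0.29 to -0.22 when 1 array was left out. Of 41 genes of excitation-contraction coupling 2 fell. S100a1, which binds calcium and tunes its release, read 11.79, 12.04 and 11.82 against 10.77, 11.04 and 10.90 (-0.98 ± 0.10, adjusted p = 0.00154). Rcan2, a regulator of the phosphatase calcineurin, read 11.27, 11.46 and 11.39 against 10.21, 10.13 and 10.61; its dim second probe set gave -0.09. Both were called whichever array was left out. The release channel gene Ryr1 (-0.13) and the fast pump Atp2a1 (-0.09) did not pass.

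Contractile genes showed few calls. Of 18 slow fibre genes 1 rose and 0 fell, with a median of 0.32 that ran from 0.16 to 0.44 when 1 array was left out. Myoz2, a Z-disc protein of slow fibres, read 12.79, 12.75 and 12.87 against 13.45, 13.29 and 13.07. Myh7, the slow myosin, overlapped, at 13.30, 12.59 and 13.74 in wild-type and 14.03, 14.14 and 13.57 in knock-out muscle. Of 20 fast fibre genes 0 passed limma (0 unadjusted), with a median of -0.06. Of 35 Z-disc and sarcomere upkeep genes Myoz2 and Ankrd1, a stretch-responsive titin partner (10.37, 10.93 and 10.43 against 11.45, 11.62 and 11.41), rose, beside 0.473% of all genes. Myoz2 was called in 1 of 12 fits that left out an array and Ankrd1 in 4.

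At the nerve contact 1 of 31 genes fell, beside 0.852% of all genes, which is a value for that gene and not for the list. Lynx1, which damps acetylcholine receptors, read 11.38, 11.58 and 11.26 in wild-type and 9.38, 10.28 and 10.80 in knock-out muscle. The 5 acetylcholine receptor subunit genes lay between -0.54 and 0.56 with 0 called by limma (3 unadjusted). Lynx1 was called in 3 of 12 fits that left out an array, and without knock-out 3 the list had 3 falls and 3 rises. Regeneration genes (24) had 0 called by limma (4 unadjusted, beside 19.3% of all genes).

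The study's title names glucose intolerance. Of 37 genes of insulin signalling and glucose uptake 0 passed limma, at a median of 0.01, and 6 had an unadjusted p under 0.05. Over all genes 19.3% had such a p. Slc2a4, the insulin-responsive glucose transporter, read 12.91, 13.07 and 13.15 in wild-type and 13.08, 12.78 and 12.96 in knock-out muscle, with overlap (-0.10 ± 0.10). Hk2, the hexokinase that traps glucose, was at -0.27 ± 0.12. The largest differences without a call were Irs2 at 0.65, where knock-out 1 read 10.60 beside 9.19 and 8.86, and Slc2a12 at -0.40.

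Of 33 secreted muscle factors 2 fell, beside 0.852% of all genes, and 1 without wild-type 2 or wild-type 3. Fndc5 is given above. Vegfb, a growth factor linked to fatty acid handling of vessels, read 11.28, 11.35 and 11.28 against 10.10, 10.47 and 10.60 (-0.92 ± 0.14, adjusted p = 0.0118), while the main vessel growth factor Vegfa was at -0.37 ± 0.11 (adjusted p = 0.112). Il15 was at -0.46, Fgf21 at 0.14 under the median signal and Angptl4 at 0.95, and none passed. Endothelial markers (14 genes) had a mean level of 8.37 to 8.44 in wild-type and 8.14 to 8.44 in knock-out muscle, and their part in the vessel growth factor result was not tested.

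The title also names inflammation. Of 44 cytokine and NF-kappaB genes 1 rose, Il12a, a subunit of the cytokines interleukin 12 and 35, which read 7.44, 7.20 and 7.41 against 8.09, 8.71 and 8.31. The list's median was -0.06, and it had 3 rises without knock-out 3 and 0 without wild-type 2 or wild-type 3. Tnf was dim and read 6.63, 6.68 and 6.67 against 6.16, 6.20 and 6.14, lower without passing (adjusted p = 0.0872), and Il6 (0.13) and Il1b (-0.16) were under the median signal. Tlr4, the endotoxin receptor, was at 1.16 ± 0.30 without passing. Complement (17 genes, median 0.16) and antigen presentation (18 genes, median 0.25) had 0 called by limma. An unadjusted p under 0.05 was seen in 5 and 2 of them, beside 19.3% of all genes.

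Macrophage genes were higher on average but seldom passed. Cd68, the lysosomal glycoprotein of macrophages, read 6.72, 8.04 and 6.69 in wild-type and 10.25, 8.67 and 9.05 in knock-out muscle, a 4.51-fold rise. It was the 1 of 30 macrophage markers that rose, at a list median of 0.63 (0.45 to 0.97 when 1 array was left out), and its call was lost without knock-out 1, wild-type 1 or wild-type 3 (adjusted p up to 0.127). Without knock-out 3 or without wild-type 2 the list had 3 rises. Csf1r read 9.54, 10.16 and 9.73 against 10.34, 10.60 and 10.52, Adgre1 6.78, 6.96 and 6.99 against 6.88, 7.29 and 7.81, and Lyz2 overlapped. The next largest differences in the list were Clec10a at 1.04 and Mrc1 at 0.97, without passing. Relative to the old wild-type mean, the array levels over the markers were -0.32, 0.49 and -0.16 in wild-type and 0.35, 0.57 and 0.79 in knock-out muscle. Wild-type 2 lay inside the knock-out range. Cd68 was highest in knock-out 1, where the marker level was the lowest of the knock-out arrays.

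Apoe, the lipid carrier made by macrophages and other cells, read 8.88, 9.08 and 9.32 against 11.01, 10.32 and 9.60 (1.22 ± 0.27, adjusted p = 0.0476). It was called in 1 of 12 fits that left out an array (adjusted p up to 0.129), and its order over the knock-out arrays is that of the adipocyte markers. Those markers had array levels of -0.13, -0.08 and 0.20 in wild-type and 1.01, 0.79 and -0.14 in knock-out muscle, and 0 of 16 passed limma (6 unadjusted). The defining gene Adipoq read 9.38, 8.89 and 10.28 against 13.12, 12.47 and 9.25. In 31 genes of lipid droplets and lipid synthesis 0 passed limma (10 unadjusted; median 0.21, 0.09 without knock-out 1), and Cidec read 10.80, 9.32 and 6.51 in the knock-out arrays. Without knock-out 3, 9 lipid genes and 7 adipocyte markers passed, all higher. The part of fat cells in these values was not tested.

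**Figure D4:**
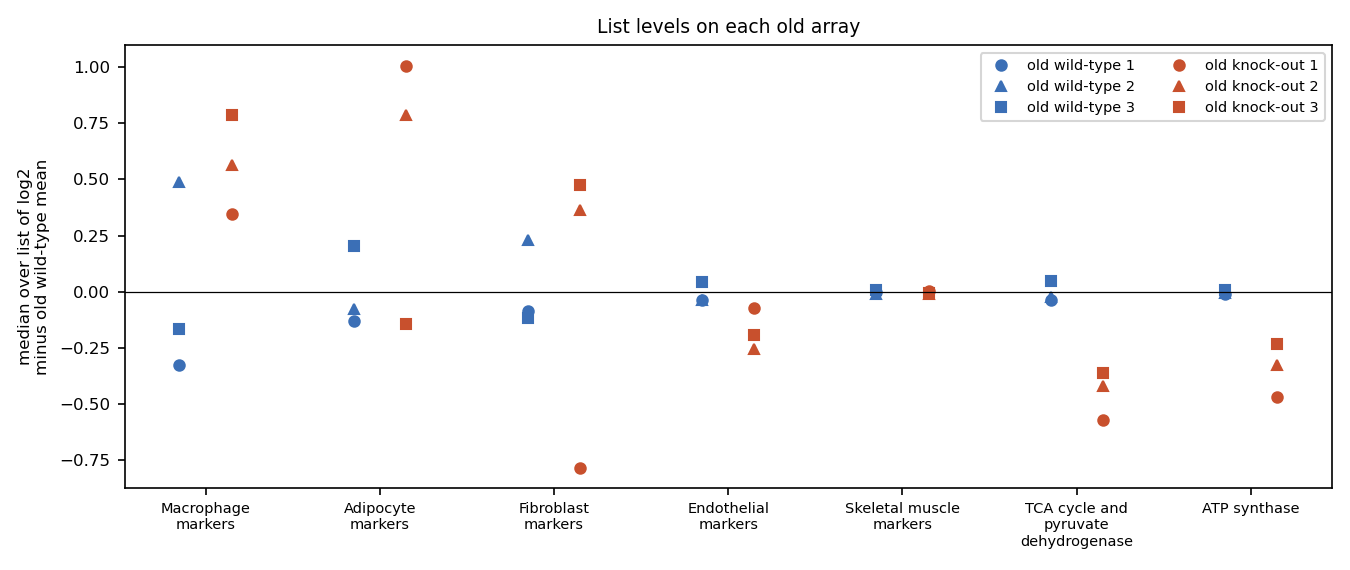
Median over each list of log2 signal minus the old wild-type mean, for each old array (blue, wild-type; red, knock-out). Adipocyte markers are high in knock-out 1 and 2 (1.01 and 0.79) and not in knock-out 3, fibroblast markers are low in knock-out 1, and tricarboxylic acid cycle and ATP synthase genes are low in all 3 knock-out arrays.

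Of 30 atrophy and proteolysis genes 0 passed limma (5 unadjusted, beside 19.3% of all genes), at a median of 0.26 that became 0.07 without knock-out 1. The list had 1 rise without knock-out 1 and 2 without knock-out 3. Its level per array was 0.71 in knock-out 1 and 0.07 and 0.10 in knock-out 2 and 3, relative to the old wild-type mean. The members of smallest p were higher in all 3 knock-out arrays. Ctsl, a lysosomal protease, read 12.30, 12.30 and 12.20 in wild-type and 14.15, 12.79 and 12.85 in knock-out muscle (0.99 ± 0.26, adjusted p = 0.0841), the ubiquitin ligase gene Nedd4 was at 0.40 and the protease gene Capn2 at 0.26. Sesn1 (1.08), Eif4ebp1 (0.82), Gabarapl1 (0.56), Fbxo21 (0.32) and Cblb (0.24) also had all knock-out arrays higher, and Cast (-0.23) all lower, without passing. The remaining members overlapped. Among these, the ubiquitin ligase gene Fbxo32 read 14.52, 13.18 and 13.24 in knock-out and 13.50, 13.30 and 13.81 in wild-type muscle, high in knock-out 1 alone. Capn1 went the other way, at -0.33, with knock-out 1 the lowest at 8.93. Trp53inp2, a promoter of autophagy in muscle, fell, from 13.20, 13.39 and 13.40 to 12.07, 12.49 and 12.81, the 1 call among 23 senescence and p53 genes. That call was lost without knock-out 2, wild-type 2 or wild-type 3.

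Stress and antioxidant genes moved both ways. Of 29 genes of the mitochondrial and integrated stress response 1 rose, the serine synthesis gene Psat1 (6.53, 7.08 and 6.63 against 8.10, 7.45 and 7.69). Its call was lost without knock-out 1, wild-type 1 or wild-type 3 (adjusted p up to 0.120). Atf4, the central factor of the response, was at 0.02, and Atf3 at 1.41 without passing, with knock-out 1 highest at 10.70. Of 36 antioxidant genes Glrx and Sod2 fell and Gpx7, a peroxidase of the endoplasmic reticulum, rose from 8.13, 8.16 and 7.98 to 8.84, 8.72 and 8.84. These 3 were called whichever array was left out.

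A group on the X chromosome rose in part. Of 18 measured genes of the TCEAL, BEX, ARMCX and GASP families, which lie in a cluster, 4 rose and 0 fell, with a median of 0.29. Of all genes 0.473% rose, and on the X chromosome 4 of 617 tested. Tceal8 read 7.88, 8.07 and 7.60 against 8.68, 9.25 and 8.99, Bhlhb9 (also Gprasp3) 7.52, 6.999 and 7.15 against 8.53, 8.92 and 7.98, and Bex1 12.79, 12.24 and 12.36 against 13.60, 12.98 and 13.18. Armcx1 rose at a dim level (0.53 ± 0.11). Members of these families are similar in sequence, so signals may be shared between them. Leaving out 1 array gave 0 to 4 rises, with 0 without wild-type 3 and 1 without wild-type 2.

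Other large rises fell in no list. Ndrg4, a gene of excitable tissue, read 8.02, 7.27 and 7.59 against 9.28, 9.49 and 9.05, and Panx1, a membrane channel for ATP, 8.96, 8.77 and 8.35 against 10.01, 9.50 and 9.79. Tecrl, a reticulum enzyme gene of striated muscle, read 5.79, 4.89 and 5.19 against 7.69, 7.78 and 6.31, at least 3.92-fold. Casr, the calcium-sensing receptor, read 7.47, 7.62 and 7.78 against 8.62, 8.23 and 8.53. Scn3b, a sodium channel subunit, rose on 1 probe set (1.09) and not on the other (-0.15). Armh4 (1.02 ± 0.20) and the unnamed transcripts D630024D03Rik (1.19), A930003A15Rik (1.21) and 5730419F03Rik (1.34) rose as well. The Y-linked Eif2s3y, a translation factor subunit, was higher by 0.68 ± 0.10, and Kdm5d and Uty, of the same chromosome, did not pass. The 3 measured genes of the Y-linked subgroup lay between 0.18 and 0.68 (median 0.40), with 2 at an unadjusted p under 0.05.

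The same contrast in young muscle uses 6 different arrays. There 35 genes passed (0.192%), 7 up (0.0385%) and 28 down (0.154%). Of the 241 genes of old muscle 225 had the same sign in young muscle, 147 of the 155 that fell and 78 of the 86 that rose. Called at both ages were 25 genes, 10.4% of the calls in old and 71.4% of those in young muscle, all in the same direction. Both contrasts took each gene's spread from the same fit to 12 arrays. A gene of small spread is thus favoured at both ages, and the 2 sets of calls are not independent. The share of all genes with the same sign at both ages was not counted. The median difference of the fallen genes was -0.59 in old and -0.40 in young muscle, and of the risen genes 0.60 and 0.22. Since the 241 were chosen for their size in old muscle, the smaller young values are partly given by the choice. Over all genes, which are not independent, the differences at the 2 ages had a Pearson correlation of 0.39 and a Spearman correlation of 0.43.

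Kcng4 was at -2.14 in old and -1.92 in young muscle, Glrx at -1.11 and -1.26, Fndc5 at -1.61 and -1.03, and Got2 at -0.85 and -0.80. Among rises, Cd68 was at 2.17 and 0.38, Apoe at 1.22 and -0.04, and Psat1 at 1.0 and -0.07. A difference between the ages was tested for every gene as an interaction. None of 18194 genes passed limma (0.0%, smallest adjusted p = 0.236), while 992 (5.45%) had an unadjusted p under 0.05. Leaving out knock-out 3 of old muscle gave 37 genes past the threshold, and leaving out wild-type 2 gave 1. No gene is shown to respond differently at the 2 ages with all arrays in the fit.

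**Figure D5:**
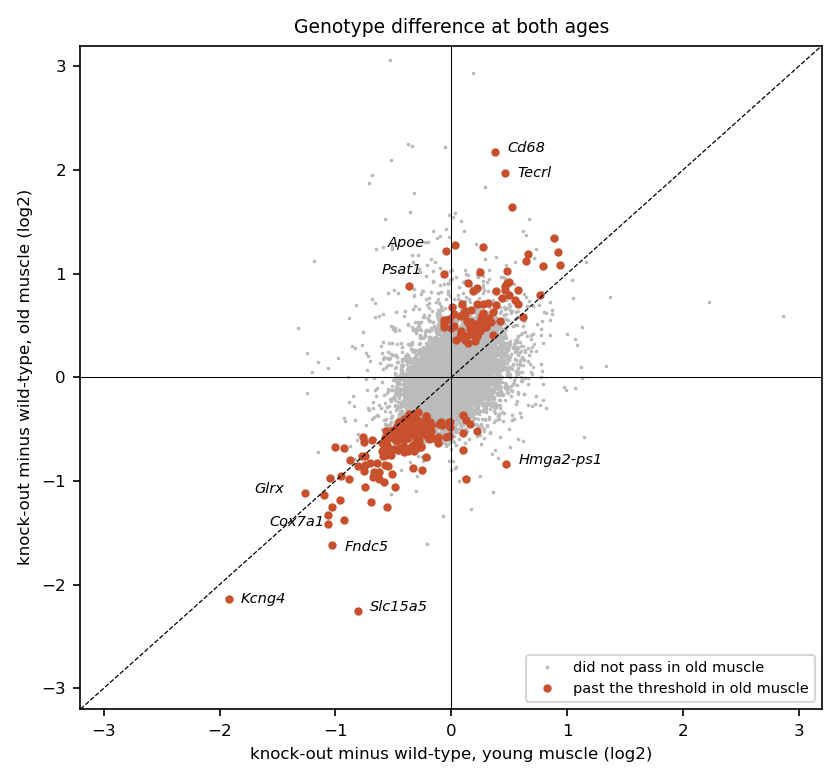
Knock-out minus wild-type (log2) in young (x) and old (y) muscle for 18194 genes; red points passed in old muscle and the dashed line marks equal differences. Fallen genes such as Kcng4, Fndc5, Cox7a1 and Glrx lie low at both ages, and Cd68, Apoe and Psat1 lie high in old muscle with young differences of 0.38, -0.04 and -0.07.

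By position the calls showed no concentration near the targeted gene. Of the 100 genes tested nearest to Ppargc1a on its chromosome, 50 on each side, 1 was called (1%, beside 1.32% of all genes). This was the cilium gene Evc, which fell (-0.90 ± 0.17). Arrays were apart in 23 of the 100, beside 23.8% of all genes. Across the autosomes and the X chromosome the called share ran from 0.959% on chromosome 17 to 2.13% on chromosome 19.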

How the data were processed

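Total RNA (Trizol extraction) was copied to biotinylated cRNA and hybridised to Affymetrix arrays, per the labels' protocols. The authors deposited log2 values made by RMA (affy), per the submitters' processing notes; their versions are not given in the sources used here. RMA forces all arrays to 1 distribution, so a shift shared by most genes would not be seen. Of 45101 probe sets, 34958 name 1 gene in the platform annotation; each of 18194 genes was read on its probe set with the highest mean over 12 arrays, and Ppargc1a on all. Saturation and cross-hybridisation stay in these values.

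A mean for each of 4 groups was fitted to all 12 arrays with limma 3.58.1 (lmFit, eBayes; R 4.3.3; 8 residual degrees of freedom), and the contrasts in old muscle, young muscle and their difference were each adjusted by Benjamini-Hochberg over all genes, threshold 0.05. The script was tested on simulated data. Lists are described by counts and medians, with no set test. The members and lists were chosen with earlier results of these data known.

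Genes were named by a rule: Ppargc1a; the 15 largest rises and falls past the threshold with arrays apart and a higher mean above the median signal; the 10 smallest p; the 5 smallest interaction p; and, per list, called members and those of smallest p. Other genes were named for their role after their values were seen. Alternatives were other probe set rules, normalizations, filters, variance models and thresholds, the old arrays alone, and each array left out.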

Additional observations from a re-analysis of the deposited data

Results flagged for a closer look

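Only genes picked for naming were searched here, not all 18194 tested. In 5 of them every knock-out array lay beyond the wild-type arrays in 1 direction in old muscle and in the opposite direction in young muscle. Cast, outside this search, did the same (-0.23 in old and 0.16 in young muscle). Of all genes 23.8% had arrays apart in old and 20.8% in young muscle. In Hmga2-ps1 the difference was -0.83 in old and 0.47 in young muscle, an interaction of -1.31 (adjusted p = 0.236). In Trim14, a dim antiviral gene, it was 0.33 and -0.54, an interaction of 0.86 (adjusted p = 0.236). Csrp3, a stretch-responsive Z-disc protein gene, was at 0.84 and -0.49, an interaction of 1.33. Prkcd, a protein kinase C gene, was at -0.53 and 0.33, an interaction of -0.86, and Bcl2, an inhibitor of cell death, at -0.52 and 0.22, an interaction of -0.74. None of these interactions passed limma over all genes.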

How the results depend on the processing

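No called gene changed direction in any setting, but most settings could not have reversed one. A gene whose arrays are apart keeps its sign when arrays are left out or weighted. Filters, variance models, thresholds and the old arrays alone leave the difference itself unchanged. Only centring, repeated quantile normalization and the mean over a gene's probe sets could have changed a sign. Of 241 calls, 187 held with array weights and 208 with arrays centred on the median. Testing the brighter genes only gave 372 calls (152 higher), trended and robust variances 389 (148 higher, 241 lower), a threshold of 0.10 gave 800 (365 higher, 435 lower), and the old arrays only gave 0 (0 higher, 0 lower), with fewer arrays to estimate the spread. Leaving out each array in turn gave 28 to 644 calls, 4 to 332 higher and 24 to 312 lower, and 0 to 37 for the genotype by age interaction; the cause was not tested. Uncalled differences near 0 had no stable sign: Atf4 became -0.032 with array weights and -0.015 with repeated quantile normalization, Pdk4 -0.10 and -0.0089, Esrrg 0.035 with array weights and 0.0034 with centring, and Tfam 0.016 with array weights. When single arrays were left out, the difference ran from -0.065 to 0.081 for Atf4, -0.18 to 0.084 for Esrrg, -0.033 to 0.41 for Il6, -0.16 to 0.16 for Pdk4, -0.41 to 0.10 for Ppargc1b, -0.0055 to 0.24 for Sod1 and -0.14 to 0.057 for Tfam. No paired analysis was possible because the replicate numbers only follow accession order. Signals near background and near the top of the scale understate differences, and 3 arrays per group limit the precision.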

Other observations

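Of the 10092 probe sets without a single gene name, which were tested apart, 2 were called in old muscle, both lower in the knock-out arrays, at -1.31 and -1.07 (adjusted p = 0.0217 for both). The first read 10.9, 10.9 and 11.0 in wild-type and 9.32, 9.41 and 10.1 in knock-out muscle, without overlap.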
